A study of Mus musculus with 16 samples.

Results

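Pdk4, Angptl4, Klf15, Cebpd and Fam107a are 5 mouse genes known to respond to glucocorticoid stress hormones, to fasting or to both. They were selected on measured values: the choice was made with the log2 differences between the groups of these arrays already known, and which contrast weighed most is not recorded. Every difference between groups given for them here is therefore a description and carries no test. Of the 5, 4 could be placed on a row of the realigned intensity table and tested for the background counts, out of 7276 genes tested in all. Klf15 lay outside the realigned stretches of probe set labels. Its row was found by a separate search, and it is given apart from the other 4.

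Whole lungs of mice in a model of asthma were profiled on 16 Affymetrix arrays, 1 array per sample and 4 per group. The groups were the line titled BALB-RAG given ovalbumin (OVA), an allergen from egg white, BALB-RAG exposed to phosphate-buffered saline (PBS), BALB/c exposed to OVA, and BALB/c exposed to PBS. In all groups the lungs were taken on day 22, 1 day after exposure ended. The labels give no age, sex or Rag allele, no fasting state and no time of day, and do not say whether replicates were separate animals, so the spread between them may be technical. The Rag genes are needed to assemble antigen receptors, and mature T and B lymphocytes do not form without them. In bulk lung RNA, fewer cells of a type and less RNA per cell cannot be told apart.

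Glucocorticoids enter the cell and bind the glucocorticoid receptor, which moves to the nucleus and binds DNA at paired half-sites near its target genes. Fasting raises glucocorticoids and circulating fatty acids and lowers insulin, and tissues then spare glucose and burn fat through the glucocorticoid receptor, the fatty acid-sensing PPAR factors and FoxO factors. In lung, glucocorticoids drive late maturation of the alveoli and are used as drugs against asthma.

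The arrays were of like brightness, with a median intensity between 18.2 and 20.5. Log2 4 was taken as the background. Lymphocyte transcripts did not match the title of every BALB-RAG array. The mean of the 8 placed T cell markers (of 12 listed) was 3.38, 5.46, 3.45 and 3.30 on replicates 1 to 4 of BALB-RAG OVA and 4.41 to 4.72 in BALB-RAG PBS, against 5.32 to 6.59 in BALB/c OVA and 4.37 to 4.73 in BALB/c PBS. Replicate 2 of BALB-RAG OVA and all 4 BALB-RAG PBS arrays therefore carried T cell transcripts near or above the level of BALB/c PBS lung. The mean of the 8 placed B cell markers (of 9) was 3.86, 6.66, 3.83 and 3.92 on replicates 1 to 4 of BALB-RAG OVA. It was 5.36 to 5.92 in BALB-RAG PBS, 7.26 to 8.28 in BALB/c OVA and 6.00 to 6.39 in BALB/c PBS. The BALB-RAG PBS mean thus lay below BALB/c PBS, but above replicates 1, 3 and 4 of BALB-RAG OVA. The log2 of the summed intensity overlapped, at 9.44 to 11.24 in BALB-RAG PBS and 10.03 to 10.86 in BALB/c PBS. Of the 7 tested, only the antibody chain gene Igha had a higher mean in BALB-RAG PBS, 9.75 against 7.07. Groups were kept as titled. The mean of the 8 placed epithelial markers (of 10) lay between 11.78 and 12.37 on every array. The mean of the 9 placed endothelial markers (of 10) was 9.39 to 9.54 in BALB/c PBS. Every BALB/c OVA array lay below that range, down to 8.66, while the BALB-RAG groups overlapped. The mean of the 9 smooth muscle and pericyte markers was 7.58 to 8.11 in BALB-RAG and 6.68 to 7.45 in BALB/c, over both exposures. Of these Myh11 was under log2 4 on all arrays. The part of endothelium and smooth muscle in the differences of the 5 genes was not tested.

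All 5 genes were higher with OVA than with PBS in BALB-RAG lung and lower with OVA than with PBS in BALB/c lung. The 4 OVA arrays lay above the 4 PBS arrays for all 5 genes in BALB-RAG. In BALB/c they lay below the PBS arrays for all but Fam107a, whose groups overlapped. As background, the 4 OVA arrays lay wholly above for 2.67% of all genes tested in BALB-RAG and wholly below for 9.24% in BALB/c. An estimate above 0 in BALB-RAG together with one below 0 in BALB/c was found for 28.5% of genes.

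**Figure D1:**
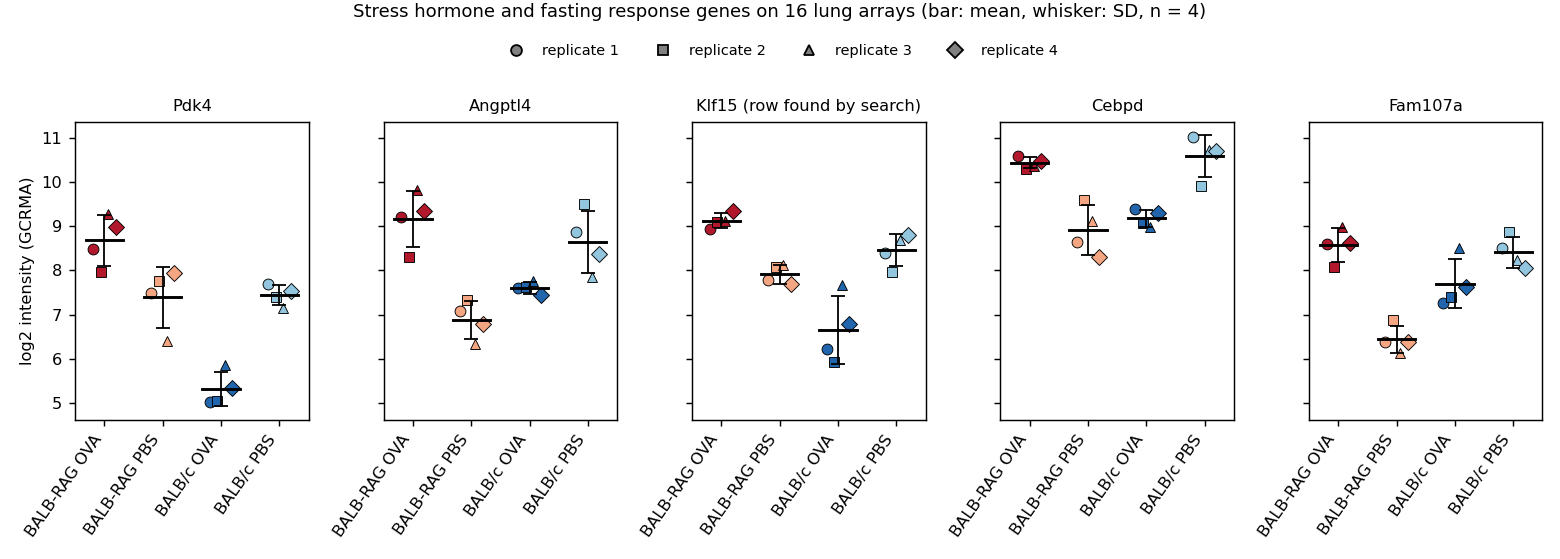
Log2 intensity of the 5 genes on each of the 16 arrays by group, with the symbol giving the replicate number, the bar the mean and the whisker the SD (n = 4). BALB-RAG OVA arrays sit above BALB-RAG PBS arrays in every panel, and BALB/c OVA arrays sit below BALB/c PBS arrays in all panels but that of Fam107a.

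Pdk4 encodes pyruvate dehydrogenase kinase 4, which switches off the enzyme complex that feeds pyruvate into the citric acid cycle and so spares glucose. Its log2 intensity was 8.49, 7.97, 9.27 and 8.97 on replicates 1 to 4 of BALB-RAG OVA, against 7.49, 7.75, 6.40 and 7.94 in BALB-RAG PBS. In BALB/c OVA it was 5.02, 5.05, 5.86 and 5.35, against 7.68, 7.39, 7.15 and 7.53 in BALB/c PBS. The lowest BALB-RAG OVA array was close to the highest BALB-RAG PBS array, while the BALB/c groups lay far apart. OVA minus PBS was 1.28 ± 0.32 on the log2 scale in BALB-RAG, a 2.43-fold higher intensity, and −2.12 ± 0.32 in BALB/c, a 4.34-fold lower one (SE, n = 4 per group, limma). Of the 5, Pdk4 had the means nearest each other between the lines after PBS, at 7.40 ± 0.69 in BALB-RAG and 7.44 ± 0.23 in BALB/c (SD, n = 4). After OVA its mean was 8.68 ± 0.57 in BALB-RAG and 5.32 ± 0.39 in BALB/c, a 10.23-fold difference. Within replicates 1 and 2 alone the BALB-RAG difference was 0.61, and within replicates 3 and 4 it was 1.95.

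Angptl4 encodes a secreted protein that inhibits lipoprotein lipase and so limits the uptake of fatty acids from blood lipoproteins. It read 9.21, 8.31, 9.82 and 9.33 on replicates 1 to 4 of BALB-RAG OVA, against 7.07, 7.34, 6.34 and 6.79 in BALB-RAG PBS. It read 7.60, 7.62, 7.77 and 7.44 in BALB/c OVA, against 8.87, 9.49, 7.84 and 8.38 in BALB/c PBS. The BALB/c OVA arrays were tightly grouped just under the lowest BALB/c PBS array. OVA minus PBS was 2.28 ± 0.34 in BALB-RAG (4.87-fold) and −1.03 ± 0.34 in BALB/c (2.05-fold lower). The size of both depended on the replicates: it was 1.55 and −1.57 within replicates 1 and 2, and 3.01 and −0.50 within replicates 3 and 4, in the same order of lines. With the replicate number as a block, the BALB/c difference of Angptl4 no longer passed the threshold used for all genes, and it missed it without any 1 of 12 of the 16 arrays.

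Klf15 encodes a Krüppel-like factor that glucocorticoids induce and that controls amino acid breakdown and glucose production in the fasted liver. Its label was tied to a row by the correlation between probe sets of the same gene among its neighbours. The shift used scored a mean correlation of 0.369 over 109 pairs, against 0.156 for the next best shift and −0.127 for the labels as deposited. On that row it read 8.94, 9.10, 9.12 and 9.34 on replicates 1 to 4 of BALB-RAG OVA, against 7.78, 8.07, 8.12 and 7.68 in BALB-RAG PBS. BALB/c OVA arrays read 6.23, 5.93, 7.66 and 6.79, against 8.40, 7.97, 8.68 and 8.79 in BALB/c PBS. Replicate 3 of BALB/c OVA stood nearest to the PBS arrays of its line. OVA minus PBS was 1.22 ± 0.29 in BALB-RAG and −1.81 ± 0.29 in BALB/c.

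Cebpd encodes C/EBPδ, a transcription factor that glucocorticoids and inflammatory signals both induce. It was the brightest of the 5 probe sets. Its log2 intensity was 10.58, 10.30, 10.36 and 10.48 on replicates 1 to 4 of BALB-RAG OVA, against 8.63, 9.60, 9.11 and 8.31 in BALB-RAG PBS. In BALB/c OVA it was 9.38, 9.07, 8.97 and 9.30, against 11.01, 9.91, 10.71 and 10.69 in BALB/c PBS. The spread was narrow in both OVA groups and wider in both PBS groups. OVA minus PBS was 1.52 ± 0.26 in BALB-RAG (2.87-fold) and −1.40 ± 0.26 in BALB/c (2.65-fold lower). Cebpd lies in the stretch whose shift was turned against the stated rule, as given with the processing.

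Fam107a, also called DRR1 or TU3A, encodes an actin-binding protein that stress and glucocorticoids induce in mouse brain. Its brightest probe set read 8.60, 8.07, 8.99 and 8.62 on replicates 1 to 4 of BALB-RAG OVA, against 6.39, 6.87, 6.14 and 6.39 in BALB-RAG PBS. It read 7.26, 7.40, 8.50 and 7.62 in BALB/c OVA, against 8.50, 8.86, 8.23 and 8.06 in BALB/c PBS. Replicate 3 of BALB/c OVA reached the PBS arrays of its line, and the other BALB/c OVA arrays lay below them. OVA minus PBS was 2.12 ± 0.27 in BALB-RAG (4.35-fold) and −0.72 ± 0.27 in BALB/c. Within replicates 1 and 2 the BALB/c difference was −1.35, and within replicates 3 and 4 it was −0.08. A second probe set of Fam107a had a mean of 6.06 over the 16 arrays, against 7.78 for the brightest, and another was under log2 4 on every array.

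RefSeq promoter windows of GRCm38.p6, from 250 bases before to 50 after a gene's start, were available for 3 of the 5 genes: Pdk4, Klf15 and Fam107a. They were searched on both strands for the glucocorticoid receptor element (GNACA and TGTNC set 3 bases apart), its half-site AGAACA, the FoxO element GTAAACA, the PPAR direct repeat (AGGTCA repeated after 1 base), the E-box CACGTG, the CRE TGACGTCA, the STAT element TTCNNNGAA and the TATA box TATAAA. Of 3 Fam107a windows, 2 that overlap almost wholly held the glucocorticoid receptor element, which 0.47% of all 32851 windows hold, and AGAACA, which 18.97% hold. The Klf15 window held the E-box at 3 places, and 7.15% of windows hold at least 1. The Pdk4 window and the other Fam107a window held none of these letters. These windows are shown because they carry the matches. In the Fam107a window (minus strand, chr14:8309730-8310029) the capitals mark a forward AGAACA and a longer run in which the full element GGACATGGTGTTC, with its first base at −118 from the start, overlaps a reverse half-site. In the Klf15 window (plus strand, chr6:90462326-90462625) they mark the E-boxes, whose first bases are at −228, −172 and −3 from the start.
Fam107a: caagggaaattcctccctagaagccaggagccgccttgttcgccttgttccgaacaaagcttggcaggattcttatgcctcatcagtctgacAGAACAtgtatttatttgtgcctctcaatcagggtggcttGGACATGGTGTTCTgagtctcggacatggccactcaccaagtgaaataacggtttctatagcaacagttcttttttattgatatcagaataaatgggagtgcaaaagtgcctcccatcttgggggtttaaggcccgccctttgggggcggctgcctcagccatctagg
Klf15: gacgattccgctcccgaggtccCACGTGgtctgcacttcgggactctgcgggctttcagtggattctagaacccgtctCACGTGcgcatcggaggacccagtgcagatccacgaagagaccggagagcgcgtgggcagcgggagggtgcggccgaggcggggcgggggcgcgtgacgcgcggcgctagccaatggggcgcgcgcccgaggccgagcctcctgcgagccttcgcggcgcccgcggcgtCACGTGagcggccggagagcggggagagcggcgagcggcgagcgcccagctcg
A match is a description of the letters and no evidence of binding in these lungs.

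The opposite responses gave the 5 genes large differences between the lines' OVA responses. That difference, BALB-RAG minus BALB/c, was 3.40 ± 0.46 for Pdk4, 3.32 ± 0.48 for Angptl4, 3.02 ± 0.41 for Klf15, 2.92 ± 0.36 for Cebpd and 2.84 ± 0.38 for Fam107a (log2, SE). Among all 7276 genes ranked by this difference, Pdk4 was at place 4, Angptl4 at 5, Cebpd at 8 and Fam107a at 9. The values were near each other although the parts were not. For Pdk4 and Klf15 the larger part was the lower level with OVA in BALB/c, and for Angptl4 and Fam107a it was the higher level with OVA in BALB-RAG. For Cebpd the parts were of like size.

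Counts of genes past an adjusted p of 0.05 (limma, Benjamini-Hochberg over all genes) are given as background only, since the genes were chosen with these contrasts known. Of the 4 tested, 3 were called higher with OVA in BALB-RAG, where 0.137% of all genes were, and Pdk4 was the one not called. The call of Cebpd was lost without replicate 1, 3 or 4 of BALB-RAG OVA or replicate 1 of BALB-RAG PBS, and the 12 genes called there in either direction were 6 to 42 with 1 array left out, the highest without replicate 2 of BALB-RAG OVA. In BALB/c 3 were called lower, where 6.78% of all genes were, and Fam107a was the one not called. All 4 had a called positive difference of responses, where 3.86% of genes did. With the replicate number as a block, the number of genes called in BALB/c was 1764 in place of 1128.

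**Figure D2:**
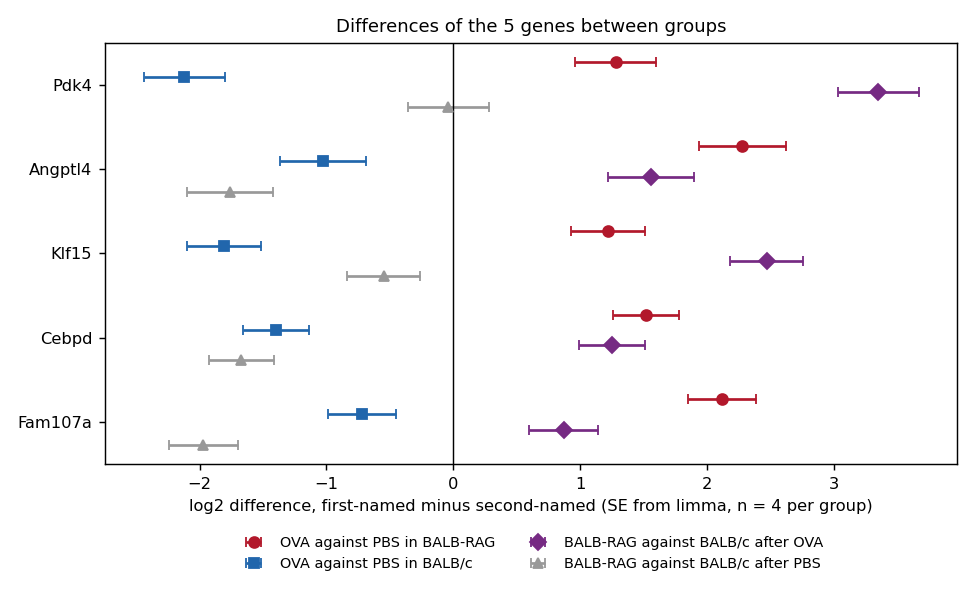
Log2 differences of the 5 genes with their SE (n = 4 per group) for OVA against PBS in each line and for BALB-RAG against BALB/c after each exposure. OVA differences are positive in BALB-RAG (1.22 to 2.28) and negative in BALB/c (−2.12 to −0.72) for all 5 genes.

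Set between the lines, the 5 genes were higher in BALB-RAG than in BALB/c after OVA. After PBS Angptl4, Cebpd and Fam107a were lower in BALB-RAG, while for Pdk4 and Klf15 the arrays of the lines overlapped. These comparisons share their arrays with those above. After OVA the line difference was 3.35 ± 0.32 for Pdk4, 1.56 ± 0.34 for Angptl4, 2.47 ± 0.29 for Klf15, 1.25 ± 0.26 for Cebpd and 0.87 ± 0.27 for Fam107a. The BALB-RAG arrays lay wholly above the BALB/c arrays for all but Fam107a, as they did for 13.3% of all genes. All 4 tested genes were called higher, as were 11.6% of all genes. After PBS it was −0.04 ± 0.32 for Pdk4, −1.76 ± 0.34 for Angptl4, −0.55 ± 0.29 for Klf15, −1.67 ± 0.26 for Cebpd and −1.97 ± 0.27 for Fam107a. The BALB-RAG arrays lay wholly below for Angptl4, Cebpd and Fam107a, as they did for 5.44% of all genes, and these were the 3 called lower, as were 1.94% of all genes. With the replicate number as a block, 609 genes were called after PBS in place of 284.

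The order of the groups differed from gene to gene. For Angptl4 the means, from high to low, were 9.17 ± 0.63 in BALB-RAG OVA, 8.65 ± 0.70 in BALB/c PBS, 7.61 ± 0.14 in BALB/c OVA and 6.88 ± 0.43 in BALB-RAG PBS (SD, n = 4). Fam107a had the same order, with 8.57 ± 0.38 in BALB-RAG OVA, 8.41 ± 0.35 in BALB/c PBS, 7.70 ± 0.56 in BALB/c OVA and 6.45 ± 0.31 in BALB-RAG PBS. For both, the BALB-RAG OVA and BALB/c PBS levels did not differ beyond their spread. Cebpd had these as its high pair too, with BALB-RAG OVA at 10.43 ± 0.13 and BALB/c PBS at 10.58 ± 0.47. Its low pair, BALB-RAG PBS at 8.91 ± 0.56 and BALB/c OVA at 9.18 ± 0.19, also lay within its spread. Pdk4 and Klf15 had BALB-RAG OVA at the top and BALB/c OVA at the bottom. For Klf15 the means were 9.13 ± 0.16 in BALB-RAG OVA, 8.46 ± 0.37 in BALB/c PBS, 7.91 ± 0.21 in BALB-RAG PBS and 6.65 ± 0.76 in BALB/c OVA.

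Correlations between the genes across the 16 arrays are descriptions, since the arrays share the group differences. Angptl4 and Fam107a had a Pearson r of 0.91 and Pdk4 and Klf15 one of 0.88. Taken as deviations from the group means, Angptl4 and Fam107a still had 0.72, Pdk4 and Fam107a 0.69, and Pdk4 and Angptl4 0.64. Pdk4 and Klf15 had only 0.25 as deviations. Cebpd deviated without the others, with −0.15 to 0.24. Replicate 3 of BALB-RAG OVA was the highest array and replicate 3 of BALB-RAG PBS the lowest of its group for Pdk4, Angptl4 and Fam107a alike.

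The mean of the standardised log2 values of the 4 tested genes was used to find the genes most like them over the 16 arrays. The 10 closest were Rgcc, Tsc22d3, Txnip, Rabgef1, Itpripl2, Sgms1, Clk1, Nhlrc1, Tmem159 and Ipmk, with r of 0.906 for Rgcc, 0.891 for Tsc22d3, 0.86 for Txnip and down to 0.819 for Ipmk. Tsc22d3 encodes GILZ, a leucine zipper protein that glucocorticoids induce, and Txnip binds thioredoxin and restrains glucose uptake. OVA minus PBS was 1.13 ± 0.22 in BALB-RAG and −1.30 ± 0.22 in BALB/c for Tsc22d3, and 1.42 ± 0.25 and −0.90 ± 0.25 for Rgcc, a cell cycle regulator. Klf15 had an r of 0.742 with this mean, and 41 of 7272 other genes had a higher one.

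Each gene had its own closest companions. For Pdk4 they were Rora (0.948), a nuclear receptor of the circadian clock, Fibin (0.945) and Selenbp1 (0.94). For Angptl4 they were Rgcc (0.879), Txnip (0.872) and Rabgef1 (0.815). For Cebpd they were Csrnp1 (0.917), Errfi1 (0.896), a feedback inhibitor of the EGF receptor, and Tiparp (0.858). For Fam107a they were Sgms1 (0.832), Marcks (0.805) and Clk1 (0.783), and the last of these had only 0.14 as deviations from the group means.

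**Figure D3:**
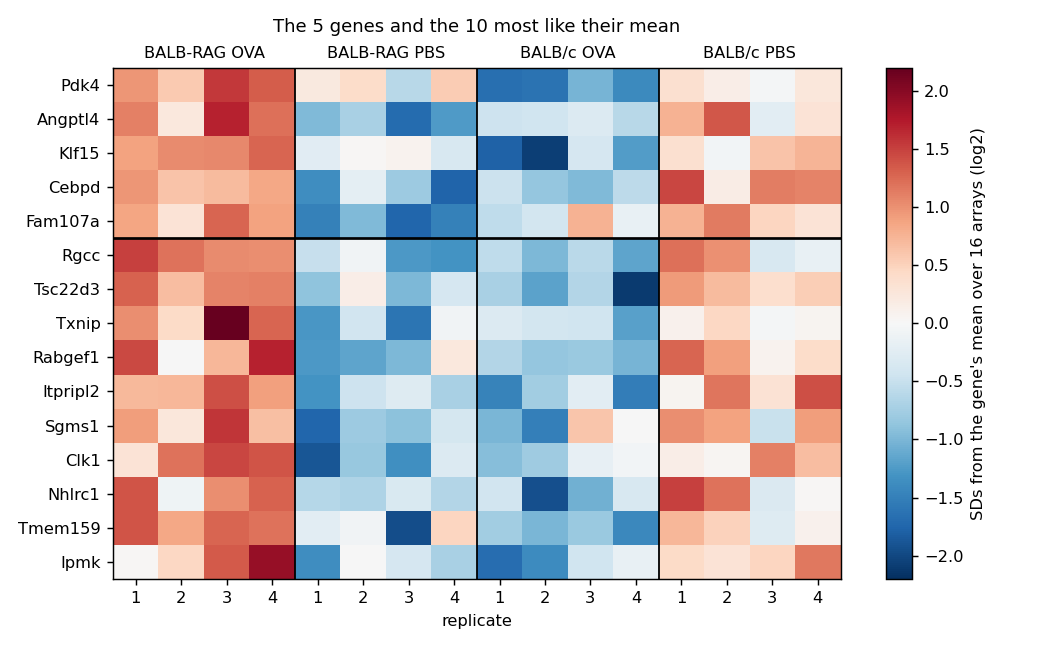
Log2 intensity of the 5 genes (above the line) and of the 10 genes most like the mean of 4 of them (below it), as SDs from each gene's mean over the 16 arrays, by group and replicate. The rows were chosen for likeness, and they are red in BALB-RAG OVA and mostly blue in BALB-RAG PBS and BALB/c OVA.

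Other glucocorticoid response genes moved in the same sense in part. Of 38 listed, 22 were tested. In BALB-RAG 1 rose with OVA and none fell, where 0.137% of all genes rose and 0.0275% fell. Of the 22 estimates 20 were above 0, and the median was 0.55, against 0.023 over all genes. The 1 that rose was Sult1a1, a sulfotransferase, at 1.21 ± 0.22 (adjusted p = 0.04, limma). The count in BALB-RAG was 0 without any 1 of 8 arrays and 4 without replicate 2 of BALB-RAG OVA. In BALB/c 6 fell and 2 rose, where 6.78% of all genes fell and 8.73% rose. The median there was −0.37, against 0 over all genes. With the replicate block 8 fell and 3 rose in BALB/c, and 3 rose in BALB-RAG. Without replicate 1 of BALB/c PBS, 4 fell and 1 rose in BALB/c.

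The 4 of this list with the smallest p in BALB/c were Crispld2, which fell by 1.71 ± 0.19 on the log2 scale (adjusted p = 2.64e-05, limma), Lcn2, which rose by 3.37 ± 0.44 (0.00011), Tsc22d3, which fell by 1.30 ± 0.22 (0.000961), and Errfi1, which fell by 1.58 ± 0.29 (0.00168). In BALB-RAG Tsc22d3 (1.13 ± 0.22) and Errfi1 (1.12 ± 0.29) had estimates of the opposite sign that did not pass. Lcn2, an iron-scavenging protein that inflammation also induces, and Cd163, a scavenger receptor of macrophages (0.86 ± 0.26, adjusted p = 0.0332, limma), were the 2 that rose in BALB/c. The mean of the 5 placed macrophage markers (of 10) was 8.75 to 10.06 on the BALB/c OVA arrays, against 6.88 to 7.70 in BALB/c PBS. Its part in these rises was not tested. Fkbp5, which blunts the receptor and is a widely used glucocorticoid marker, had 1.15 ± 0.47 in BALB-RAG and 0.57 ± 0.47 in BALB/c, and neither passed.

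The OVA responses of 7 of the 22 genes differed between the lines, all with BALB-RAG above BALB/c, where 3.86% of all genes did so. The median difference was 0.73 against 0.015 over all genes. With the replicate block 11 differed, and 4 did without replicate 1 or 3 of BALB-RAG OVA, replicate 4 of BALB-RAG PBS, replicate 4 of BALB/c OVA or replicate 1 of BALB/c PBS. Errfi1 differed by 2.70 ± 0.42 (adjusted p = 0.000808, limma) and Tsc22d3 by 2.43 ± 0.32 (0.000233). Sult1a1 differed by 2.21 ± 0.32 and Crispld2 by 1.83 ± 0.27, and Cdkn1a, Glul and Scnn1a by 0.64 to 1.40. Tsc22d3 was among the 10 genes most like the mean of the tested members, and Errfi1 among the 3 most like Cebpd. Likeness was scored on these same arrays, so it adds nothing apart from the differences.

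**Figure D4:**
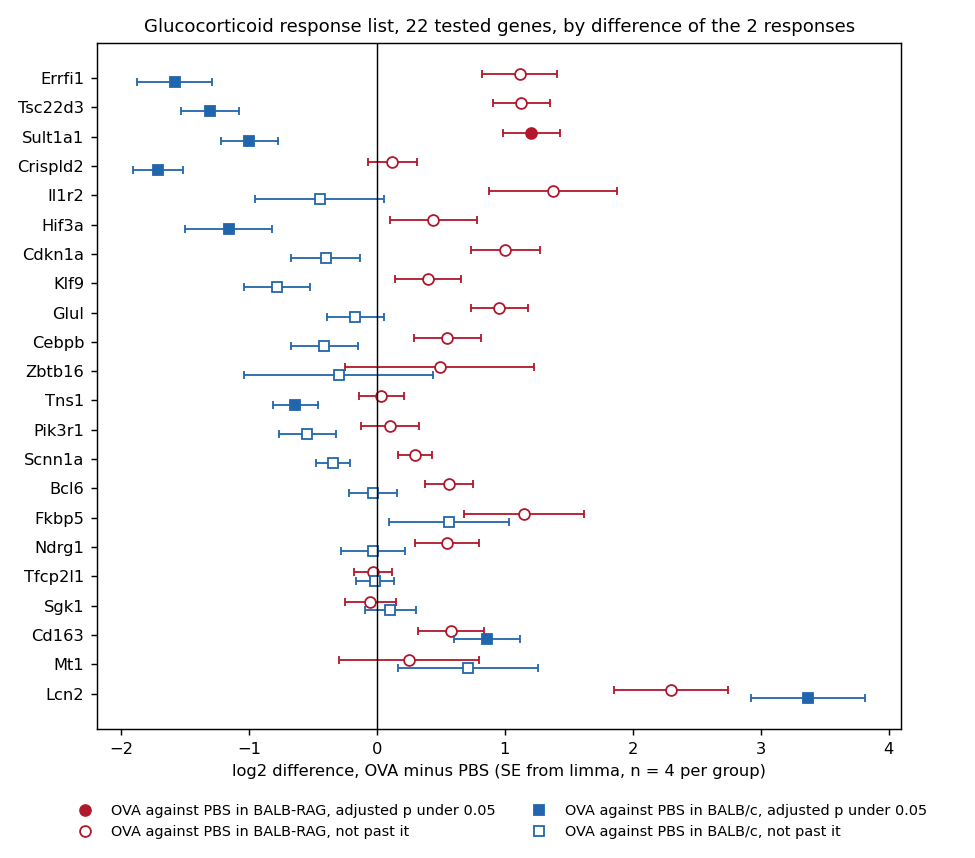
Log2 difference of OVA minus PBS with its SE (n = 4 per group) for the 22 tested genes of the glucocorticoid response list in BALB-RAG (circles) and BALB/c (squares), ordered by the difference of the responses. Filled symbols passed an adjusted p of 0.05, which 1 gene did in BALB-RAG and 8 did in BALB/c.

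Of the receptors and enzymes that handle corticosteroids, 11 were listed and 5 tested. In BALB/c 3 fell with OVA and 1 rose, where 6.78% of all genes fell and 8.73% rose. In BALB-RAG none passed (limma), with 1 at an unadjusted p under 0.05 and 1 of the 5 estimates above 0. Of all genes 0.137% rose and 0.0275% fell there, so that count is no result about the list. Nr3c1, the glucocorticoid receptor, had −0.04 ± 0.14 in BALB-RAG and −0.36 ± 0.14 in BALB/c, and neither passed. In BALB/c Nr3c2, the mineralocorticoid receptor, fell by 1.02 ± 0.26, the receptor cochaperone Fkbp4 by 0.67 ± 0.20 and the chaperone Hsp90aa1 by 0.52 ± 0.13. Hsd11b2, which inactivates corticosteroids, was called higher in BALB/c, with a mean of 4.89 in BALB/c OVA against 3.78 in BALB/c PBS. Its means of 3.83 in BALB-RAG OVA and 3.97 in BALB-RAG PBS were under the background of log2 4 too, so no size is given for it. The response of Nr3c2, which had 0.56 ± 0.26 in BALB-RAG, differed between the lines by 1.58 ± 0.36 (adjusted p = 0.0131, limma).

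Some relatives of the 5 genes were called lower with OVA in BALB/c. Of 28 listed, 15 were tested, and in BALB-RAG none passed (limma), with 2 at an unadjusted p under 0.05 and a median of 0.21. Only 0.137% of all genes were called higher there and 0.0275% lower, so that count is no result about the relatives. In BALB/c 3 fell and 0 rose, where 6.78% of all genes fell and 8.73% rose. Among the kinases related to Pdk4, Pdk1 had −0.07 ± 0.22 in BALB-RAG and −0.08 ± 0.22 in BALB/c, and Pdk3 −0.14 ± 0.22 and 0.28 ± 0.22. Of the Krüppel-like factors Klf4 fell by 1.32 ± 0.20, Klf7 by 1.17 ± 0.29 and Klf6 by 0.64 ± 0.19 in BALB/c. Klf9, itself a glucocorticoid target, had −0.78 ± 0.26 there and missed the threshold, while Klf3, Klf10, Klf13 and Klf16 had −0.28 to 0.16. The responses of Klf4, Klf6 and Klf7 differed between the lines by 1.75 ± 0.29, 0.94 ± 0.26 and 1.5 ± 0.41.

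Among the factors related to Cebpd, Cebpb had 0.55 ± 0.26 in BALB-RAG and −0.41 ± 0.26 in BALB/c, and Cebpa had 0.12 ± 0.26 and 0.31 ± 0.26. Cebpg passed in neither line, and its responses differed by 0.61 ± 0.18. Ddit3 had 0.21 ± 0.22 in BALB-RAG and −0.08 ± 0.22 in BALB/c. Fam107b, the relative of Fam107a, had −0.02 ± 0.16 in BALB-RAG and 0.45 ± 0.16 in BALB/c.

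The metabolic pathways in which Pdk4, Angptl4 and Klf15 act follow, here and in the next paragraph, for OVA against PBS. In BALB-RAG 0.137% of all genes were called higher and 0.0275% lower, and in BALB/c 8.73% higher and 6.78% lower. Lists this short would have few calls at those shares, so a low count is no result about a pathway. Of the pyruvate dehydrogenase complex and its regulators, none of 8 tested passed in either line (limma), with 0 at an unadjusted p under 0.05 in BALB-RAG and 1 in BALB/c. With the replicate block 1 rose in BALB/c. Of the genes that handle lipoprotein lipase, none of 8 passed in BALB-RAG, with 0 at an unadjusted p under 0.05, and in BALB/c Lipg, an endothelial lipase, fell by 1.52 ± 0.41, as the 1 gene called (2 with the replicate block). Of the branched chain amino acid genes, none of 9 passed in BALB-RAG, with 0 at an unadjusted p under 0.05. Ivd, an enzyme of leucine breakdown, fell by 0.54 ± 0.17 in BALB/c.

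Of 16 fatty acid and PPAR target genes none passed in BALB-RAG (limma), with 2 at an unadjusted p under 0.05 and a median of −0.02. In BALB/c Plin4, a lipid droplet protein, fell by 1.24 ± 0.34 and Cd36, a fatty acid transporter, by 0.44 ± 0.14. With the replicate block 4 fell in BALB/c. Of 7 PPAR factors and coactivators none passed in BALB-RAG (1 at an unadjusted p under 0.05), and Lpin1, a fasting-induced phosphatase and coactivator, fell by 0.59 ± 0.19 in BALB/c. Of 16 genes of the FoxO and low insulin response none passed in BALB-RAG (6 at an unadjusted p under 0.05), with a median of 0.34. In BALB/c Tsc22d3 and the insulin receptor substrate Irs1 fell, Irs1 by 0.82 ± 0.26.

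Between the lines after OVA, 7 of the 16 fatty acid and PPAR target genes, 4 of the 9 branched chain amino acid genes, 3 of the 8 lipoprotein lipase genes and 2 of the 8 pyruvate dehydrogenase genes were higher in BALB-RAG (limma), where 11.6% of all genes were. Of these lists 1 lipoprotein lipase gene was lower, where 12.1% of all genes were. After PBS 1 fatty acid and 1 branched chain gene were higher in BALB-RAG, where 1.97% of all genes were. With the replicate block 4 of 16 fatty acid and 4 of 8 pyruvate dehydrogenase genes were higher after PBS. Cardiac muscle and adipose markers were higher in BALB-RAG as well, 7 of 7 and 3 of 4 tested after OVA and 2 and 3 after PBS. The part of heart and fat tissue in the counts of these lists was not tested.

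In the lists that follow, the shares of all genes in BALB/c were 8.73% higher and 6.78% lower with OVA. In BALB-RAG they were 0.137% and 0.0275%, so that no call in lists this short is no result about them. Of 18 hypoxia response genes none passed in BALB-RAG (limma, 4 at an unadjusted p under 0.05). In BALB/c 3 rose and 3 fell, among them the glycolytic enzymes Hk2 (0.75 ± 0.20) and Pgk1 (0.68 ± 0.18) upward and P4ha1 (−0.91 ± 0.26) and Vegfa (−0.65 ± 0.16) downward. Of 15 circadian clock genes none passed in BALB-RAG (3 at an unadjusted p under 0.05). In BALB/c 2 rose and 5 fell, and Bhlhe40 rose by 1.5 ± 0.21 while Cry1 (−1.13 ± 0.19), Rora (−0.54 ± 0.13) and Arntl (−1.33 ± 0.35) fell. The response of Bhlhe40 differed between the lines by −1.44 ± 0.30, and a negative difference was called for 4.63% of all genes. Of 13 immediate early genes none passed in BALB-RAG (1 at an unadjusted p under 0.05). In BALB/c 6 fell and 1 rose, and Nr4a1 (−2.70 ± 0.58), Klf4, Ier2 (−1.01 ± 0.21) and Jun (−0.84 ± 0.14) fell. In BALB-RAG against BALB/c after PBS, 7 of the 13 were lower and none higher (1.94% and 1.97% of all genes), with a median of −1.33. The mean of the 17 placed (of 22, with Fosl1 and Nr4a3 under log2 4 on all arrays) was 6.96 to 8.26 in BALB/c PBS. It was 6.77 to 7.18 in BALB/c OVA, 6.56 to 6.72 in BALB-RAG OVA and 6.39 to 6.64 in BALB-RAG PBS.

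The circadian clock genes moved with the lines. In BALB-RAG against BALB/c after PBS, 6 of 15 were higher and 4 lower (1.97% and 1.94% of all genes), and after OVA 8 were higher and 3 lower (11.6% and 12.1%). After PBS Dbp, a clock output factor, was higher by 3.74 ± 0.56 and Nr1d1, a clock repressor, by 3.28 ± 0.68 (limma, adjusted p = 0.0017 and 0.0127). Their BALB/c PBS means, 3.95 for Dbp and 3.12 for Nr1d1, were under the background of log2 4, so both sizes are uncertain. Nfil3, which opposes Dbp, was lower at −2.34 ± 0.34 and Arntl at −2.09 ± 0.35. After OVA Dbp was higher by 1.98 ± 0.56, and Nr1d1 had 1.45 ± 0.68 and did not pass. The BALB/c OVA arrays were spread widely, from 4.29 to 6.97 for Dbp and from 2.39 to 6.20 for Nr1d1. Dbp, Nr1d1, Nfil3 and Arntl were singled out with their values known. The time of day of tissue collection is not in the labels, and its part in the differences of the 5 genes was not tested.

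Markers of heart and fat moved with the lines. Heart and fat express Pdk4, Angptl4 and Klf15 strongly. The mean of 8 placed cardiac muscle markers (of 10, with Ryr2 under log2 4 on all arrays) was 7.59 to 9.41 in BALB-RAG OVA and 7.41 to 10.33 in BALB-RAG PBS, against 5.69 to 6.46 in BALB/c OVA and 6.96 to 7.38 in BALB/c PBS. The mean of 5 placed adipose markers (of 10, with Lep under log2 4 on all arrays) was 6.90 to 8.36 in BALB-RAG OVA and 6.80 to 8.83 in BALB-RAG PBS, against 4.85 to 5.71 in BALB/c OVA and 5.67 to 7.20 in BALB/c PBS. In BALB/c both were lower with OVA, as the 5 genes were, with cardiac means that did not overlap. In BALB-RAG both lists overlapped between OVA and PBS. On replicate 3 of BALB-RAG OVA, which had the highest Pdk4, Angptl4 and Fam107a, the cardiac mean was 7.59 and the adipose mean 6.90, the lowest of that group. Replicate 3 of BALB-RAG PBS, which had the lowest Pdk4, Angptl4 and Fam107a of its group, also had its lowest cardiac mean, 7.41, and adipose mean, 6.80. Their part in the differences of the 5 genes was not tested. The log2 of the summed intensity of the cardiac markers was 12.05 to 13.71 in BALB-RAG OVA, 12.03 to 14.50 in BALB-RAG PBS, 10.30 to 11.38 in BALB/c OVA and 11.59 to 11.92 in BALB/c PBS. The mean of 8 placed skeletal muscle markers (of 10) was high on single arrays. It was 7.25 and 7.14 on replicates 1 and 4 of BALB-RAG OVA. Replicate 2 of BALB-RAG PBS had 8.08 and replicate 1 of BALB/c PBS 8.35. On every other array it lay between 3.25 and 4.56. The part of skeletal muscle was not tested either.

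Replicate 2 had the highest T and B cell means of the BALB-RAG OVA arrays. Without it the BALB-RAG difference was 1.51 for Pdk4, 2.57 for Angptl4, 1.23 for Klf15, 1.56 for Cebpd and 2.29 for Fam107a. All 5 were at least as large as with it. The OVA arrays left had T cell means of 3.30 to 3.45 and B cell means of 3.83 to 3.92. The BALB-RAG PBS arrays had 4.41 to 4.72 and 5.36 to 5.92. Lymphocyte content and exposure cannot be told apart in that comparison.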

How the data were processed

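The authors deposited GCRMA intensity on a linear scale, per the submitters' processing notes and the values; its version is not stated in them. RNA was isolated with TRIZOL and 6 µg of total RNA was labelled, per the labels' protocols. Log2 was taken with no further normalisation.

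The probe set labels of the table are out of step with its values. In 3 stretches (14300 of 45101 labels) labels were moved by a stated rule, and other labels were dropped. The rule gives 47 rows upward for the middle stretch, which the data went against: the median correlation of probe sets of a gene was 0.589 at 47 rows downward, −0.028 upward and 0.001 as deposited. The downward shift was used, after seeing the data. In the other stretches it was 0.698 and 0.61, against 0.02 and 0.05 as deposited. Of the labels placed, 13146 had 1 symbol in the platform annotation, 366 several (not used) and 788 none; gene IDs matched to RefSeq changed 0 symbols. These gave 9866 genes, of which 7276 exceeded log2 4 on at least 4 arrays. The probe set with the highest mean was used.

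limma 3.58.1 in R 4.3.3 fitted 4 group means over 16 arrays (12 residual degrees of freedom) for 5 comparisons, with Benjamini-Hochberg adjustment at 0.05; it was tested on simulated data. The 4 arrays per group limit the precision. The members, gene lists and tests were chosen with earlier results of these data known. Named were the 5 genes, all tested relatives and corticosteroid receptors, up to 4 called genes with the smallest p of each other list in each line, and the genes most like the 5. Other genes of the glucocorticoid list, the clock genes set between the lines and the alternatives with Klf15, with the upward shift and without the array with lymphocyte transcripts were added after seeing values. Same-numbered arrays of the groups compared had deviations from the group means correlated at 0.025 to 0.497. Every pair was over 0.1 except for 1 of the 24, in BALB-RAG OVA against PBS. The closest array of another number had 0.123 to 0.475, so these correlations cannot show that the numbers pair the arrays. The main fit left the numbers out, and the replicate block was run as an alternative in case they do.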

Additional observations from a re-analysis of the deposited data

Results flagged for a closer look

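The OVA responses of the 5 genes differed between the lines by 3.40 (Pdk4), 3.32 (Angptl4), 3.02 (Klf15), 2.92 (Cebpd) and 2.84 (Fam107a) on the log2 scale, BALB-RAG minus BALB/c. These were known when the genes were chosen.

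Other named genes whose responses differed between the lines at an adjusted p under 0.05 (limma) had a higher difference in BALB-RAG for Errfi1 (2.70), Tsc22d3 (2.43), Sult1a1 (2.21), Lipg (2.02), Crispld2 (1.83), Klf4 (1.75), Cry1 (1.67), Nr3c2 (1.58), Klf7 (1.5), Lpin1 (1.34), Rora (1.08), Ier2 (1.06), Jun (0.99), Klf6 (0.94) and Cebpg (0.61). Cdkn1a (1.40), Glul (1.13) and Scnn1a (0.64), which the naming rule did not give, did so too. Bhlhe40 (−1.44) and Hsd11b2 (−1.25) had lower ones; for Hsd11b2 the means of both BALB-RAG groups and of BALB/c PBS were under log2 4. Genes that were named for their likeness to the 5, and so chosen for such a difference, had Csrnp1 at 2.49, Fibin at 2.48, Rgcc at 2.31, Selenbp1 at 1.47, Nhlrc1 at 1.32, Clk1 at 1.06, Txnip at 0.96, Sgms1 at 0.92, Tiparp at 0.92, Tmem159 at 0.88, Marcks at 0.73, Rabgef1 at 0.71, Ipmk at 0.68 and Itpripl2 at 0.5. No array of the 5 genes stood apart from the others of its group by Dixon's test.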

How the results depend on the processing

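For OVA against PBS in BALB-RAG 12 genes were called (10 higher, 2 lower). The count was 21 with the stricter filter, 24 with quantile normalization (14 and 10), 25 with median centring (15 and 10), 24 with the mean of a gene's probe sets and 5 with only the groups compared. It was 41 with the replicate block, 67 with a term for replicates 1 and 2 against 3 and 4, 3 within replicates 1 and 2 and 5 within replicates 3 and 4. With 1 array left out it was 6 to 42, the highest without replicate 2 of BALB-RAG OVA. In BALB/c the replicate block gave 1764, the term 1820 and replicates 3 and 4 alone 547, against 1128, and 790 to 1168 with 1 array left out. For the difference of responses they gave 1152, 1214 and 212, against 618, and 414 to 687. For BALB-RAG against BALB/c after OVA 1729 genes were called, 2453 with the replicate block, 693 within replicates 3 and 4 and 1332 to 1799 with 1 array left out. After PBS 284 were called, 142 with only the groups compared, 609 with the block, 635 with the term, 52 within replicates 3 and 4 and 174 to 397 with 1 array left out. The causes were not tested.

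Pdk4, Angptl4, Klf15 and Fam107a kept their direction in both OVA comparisons under every alternative run. Cebpd did so except with the middle stretch moved 47 rows upward, where another row gave −0.02 in BALB-RAG and −0.01 between the lines after OVA. The call of Cebpd in BALB-RAG was lost without replicate 1, 3 or 4 of BALB-RAG OVA or replicate 1 of BALB-RAG PBS. That of Fam107a between the lines after OVA was lost without replicate 1, 3 or 4 of BALB-RAG OVA or replicate 1, 2 or 4 of BALB/c OVA. That of Angptl4 in BALB/c was lost without any 1 of 12 arrays, and held without replicate 2 or 3 of BALB-RAG OVA, replicate 3 of BALB-RAG PBS or replicate 3 of BALB/c PBS. The replicate block changed no other call of the 5 genes than that of Angptl4 in BALB/c. In 11 of the 24 pairs an array was most like the array of its own number.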
